A study of Mus musculus with 6 samples.

Results

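The 10 genes described here encode heat shock proteins and related molecular chaperones: Hspa1a, Hspa1b, Hspa8, Hspa5, Hsp90aa1, Hsp90ab1, Hspd1, Hspe1, Hsph1 and Dnajb1. They were listed by name, with no cutoff on measured values, and they are 10 of the 55414 genes in the deposited table. RNA was measured in 6 mouse libraries labelled as CD8+ T cells from spleen and lymph nodes, in 3 groups of 2. Cells of all 3 groups have the OT-I genotype, a transgene that gives T cells a single receptor for a fragment of ovalbumin. The N4 group was taken 4 days after the N4 peptide, which is that ovalbumin fragment, and the T4 group 4 days after T4, an altered form that this receptor recognises less well. Each peptide was given with anti-OX40 and anti-41BB antibodies, which stimulate a pair of costimulatory receptors, so peptide and antibodies cannot be told apart in a comparison with the naive group. The third group is labelled naive. Since T cells of this genotype share 1 receptor, the groups model 1 specificity only. The labels name no sorting gate, and they do not say that the libraries of a group came from separate mice, so p-values here reflect the spread between libraries, and that spread may be technical.

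Chaperones bind unfolded or partly folded proteins and help them reach or regain their native shape. Some are made at all times, while others are kept low until heat shock factors, chiefly HSF1, bind repeated nGAAn elements in their promoters, most familiarly under heat or other protein-damaging stress. Activated T cells grow and divide quickly, and the folding of newly made protein is a known load of that state. The cytosolic members with heat-inducible expression are Hspa1a and Hspa1b, which encode the inducible Hsp70, Hsp90aa1, the inducible Hsp90 alpha, Hsph1, the Hsp110 nucleotide exchange factor of Hsp70, and Dnajb1, an Hsp40 that delivers substrates to Hsp70. Hspa8 and Hsp90ab1 encode the constitutive cytosolic Hsp70 and Hsp90. Hspa5 encodes BiP, the Hsp70 of the endoplasmic reticulum, and Hspd1 and Hspe1 encode Hsp60 and Hsp10, the chaperonin and cochaperonin of mitochondria.

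The inducible Hsp70 pair had the largest fold changes of the set in all 3 comparisons. Counts of Hspa1a and Hspa1b summed were 30.2-fold higher in T4 than in naive cells and 8.28-fold lower in N4 than in T4 cells. The constitutive partner Hspa8 had log2 fold changes of 0.52 ± 0.26 (SE) and -0.11 ± 0.26 in the same comparisons, neither past the test. The other heat-inducible members had other orders: Hsp90aa1 values overlapped between N4 and T4 cells and lay above those of naive cells, Hsph1 had its highest values in N4 cells, and Dnajb1 its lowest.

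Libraries held 269033066 to 335968843 estimated counts, and 21317 to 27147 genes had a count above 0. Levels are given as CPM, counts scaled to a common library total, after TMM scaling, and the test throughout is edgeR's quasi-likelihood test over 23003 genes with p-values adjusted by Benjamini and Hochberg's method and called under 0.05. All 10 genes passed the filter on low counts. All 7 CD8 T cell markers examined, the CD3 and CD8 chains among them, were present in every library, and their summed level was 3813 to 7426 CPM. Markers of other cells were also present, above all in naive libraries: the summed level of 8 neutrophil markers was 2441 and 25230 CPM in naive, 47.5 and 38.8 CPM in N4, and 10.8 and 4.93 CPM in T4 libraries. A change in bulk RNA can come from fewer cells of a type or from less RNA per cell, and these cannot be told apart here.

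Promoter windows from RefSeq (GRCm38.p6), running from 250 bases before to 50 bases after a start, were found for 7 of the 10 genes, and for Hspa8, Hsp90aa1 and Hsp90ab1 none was used. For Hspa1a and Hspa1b, the genes with the largest fold changes, the 250 bases before the start are shown. Capitals mark a pair of heat shock elements, GAANNTTC.

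Hspa1a (chr17:34972157-34972406, minus strand): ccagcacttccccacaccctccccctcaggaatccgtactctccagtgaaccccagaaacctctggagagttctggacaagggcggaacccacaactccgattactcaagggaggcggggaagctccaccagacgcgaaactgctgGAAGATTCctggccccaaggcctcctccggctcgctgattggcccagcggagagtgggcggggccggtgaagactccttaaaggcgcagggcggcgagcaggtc

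Hspa1b (chr17:34959239-34959488, minus strand): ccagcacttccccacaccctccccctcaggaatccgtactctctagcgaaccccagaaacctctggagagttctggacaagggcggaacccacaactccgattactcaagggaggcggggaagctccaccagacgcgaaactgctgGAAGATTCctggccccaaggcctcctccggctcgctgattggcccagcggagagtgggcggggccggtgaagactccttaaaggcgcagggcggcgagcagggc

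The whole windows of this pair differ at 4 of 300 bases, C44T, T47C, T249G and C276T, given as the Hspa1a base, the position from the 5′ end of the window, and the Hspa1b base, and C276T lies after the start, beyond the bases shown. In both, the element pair lies 104 to 97 bases before the start. Elements in the windows of Hsph1 and at the shared promoter of Hspd1 and Hspe1, and the endoplasmic reticulum stress element of Hspa5 (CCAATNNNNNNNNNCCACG), are shown as 30-base stretches for comparison. Capitals again mark the matches. Hsph1 has 2 RefSeq windows, and before and after refer to the starts of these windows. By the gene coordinates given below, which reach 149636376, the match before the start lies within Hsph1. The stretch shown for Hspe1 and Hspd1 likewise lies within Hspd1, which reaches 55088243, and that of Hspa5 within Hspa5, which begins at 34771970.

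Hsph1, before the start (chr5:149636351-149636380, minus strand): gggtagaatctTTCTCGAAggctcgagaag

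Hsph1, after the start (chr5:149636287-149636316, minus strand): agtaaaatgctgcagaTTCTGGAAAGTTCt

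Hspe1 and Hspd1 (chr1:55088053-55088082, plus strand): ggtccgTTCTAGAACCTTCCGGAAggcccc

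Hspa5 (chr2:34772020-34772049, plus strand): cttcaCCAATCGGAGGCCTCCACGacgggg

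Both strands were searched for GAANNTTC, for the opposite arrangement TTCNNGAA, and for the triplet GAANNTTCNNGAA, which contains both. A window with either pair is no rarity, since 15.1% of 32851 windows of this length hold one. The triplet was in 0.603% of windows and the stress element in 0.119%. Hspa1a and Hspa1b have a pair but no triplet, while Hsph1 and the interval between the Hspe1 start and the Hspd1 start before it, 216 bases away on the opposite strand, hold triplets. Another Hspd1 start, at 55088243, lies beyond the Hspe1 start, and its window held no match. The Dnajb1 windows held no match to any of the 4 patterns. A match is a description of letters and not of factor binding.

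Hspa1a lies at chr17:34969190-34972156 and Hspa1b at chr17:34956436-34959238 (GRCm38, minus strand), and each is a single exon. Hspa1a was at 5.22 and 5.80 CPM in the N4 libraries, 53.9 and 54.1 CPM in the T4 libraries, and 0.706 and 2.27 CPM in the naive libraries. Hspa1b was at 8.43 and 11.8 CPM in N4, 74.3 and 76.3 CPM in T4, and 1.86 and 3.72 CPM in naive libraries. For both genes every T4 library was above every N4 library, and every N4 library above every naive library, with no overlap. Against naive cells, Hspa1b rose in T4 cells by a log2 fold change of 4.76 ± 0.44 (edgeR, adjusted p = 0.047; 0.053 with RLE scaling). The log2 fold change of Hspa1a was 5.18 ± 0.62 and missed the threshold (adjusted p = 0.062). In N4 cells Hspa1b rose by 1.86 ± 0.39 (adjusted p = 0.036), and the log2 fold change of Hspa1a was 1.89 ± 0.54 (adjusted p = 0.073). Both fell in N4 against T4 cells, with a log2 fold change of -3.29 ± 0.56 for Hspa1a (adjusted p = 0.031) and -2.90 ± 0.41 for Hspa1b (adjusted p = 0.025). The nuclear RNA Malat1 took 0.0207% and 0.0209% of counts in N4 libraries and 0.133% and 0.136% in T4 libraries, and mitochondrial genes took 3.30% and 3.95% against 2.23% and 2.12%. The part of such differences between libraries in these changes was not tested.

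These genes are near-identical copies, and 58.8% of the 50-base stretches of Hspa1a also occur in Hspa1b, so how the counts divide between them is uncertain. In a sum of both, an alternative added after seeing the data, the log2 fold change was 4.92 ± 0.49 in T4 against naive (adjusted p = 0.049), 1.87 ± 0.43 in N4 against naive (adjusted p = 0.044) and -3.05 ± 0.45 in N4 against T4 cells (adjusted p = 0.025). The exon of Hspa1a also overlaps Gm20481 on the other strand, which had 0 counts in all 6 libraries. Other single-exon coding genes, 463 in number, had a median log2 fold change of 0.29 in T4 against naive, where 4 were called higher and 0 lower. Without histone genes, 398 were left with a median of 0.14 and 0 called by edgeR in that comparison, and 30 of them had a larger change in either direction than Hspa1a. The part of unspliced RNA or DNA in the counts of these intronless genes was not tested. Leaving out any 1 of the N4 or T4 libraries ended every call of these genes and of their sum. The log2 fold change of the sum without 1 such library ran from 4.82 to 4.92 in T4 against naive, from 1.67 to 2.04 in N4 against naive and from -3.25 to -2.88 between N4 and T4 cells. The naive libraries stand apart from each other in neutrophil markers. Without naive library 2, the one with more, the sum was higher by 5.65 in T4 and 2.60 in N4, and without naive library 1 by 4.34 and 1.24, on the log2 scale. The lone naive library is then assumed to vary like the other groups, so no p is given for these values.

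**Figure D1:**
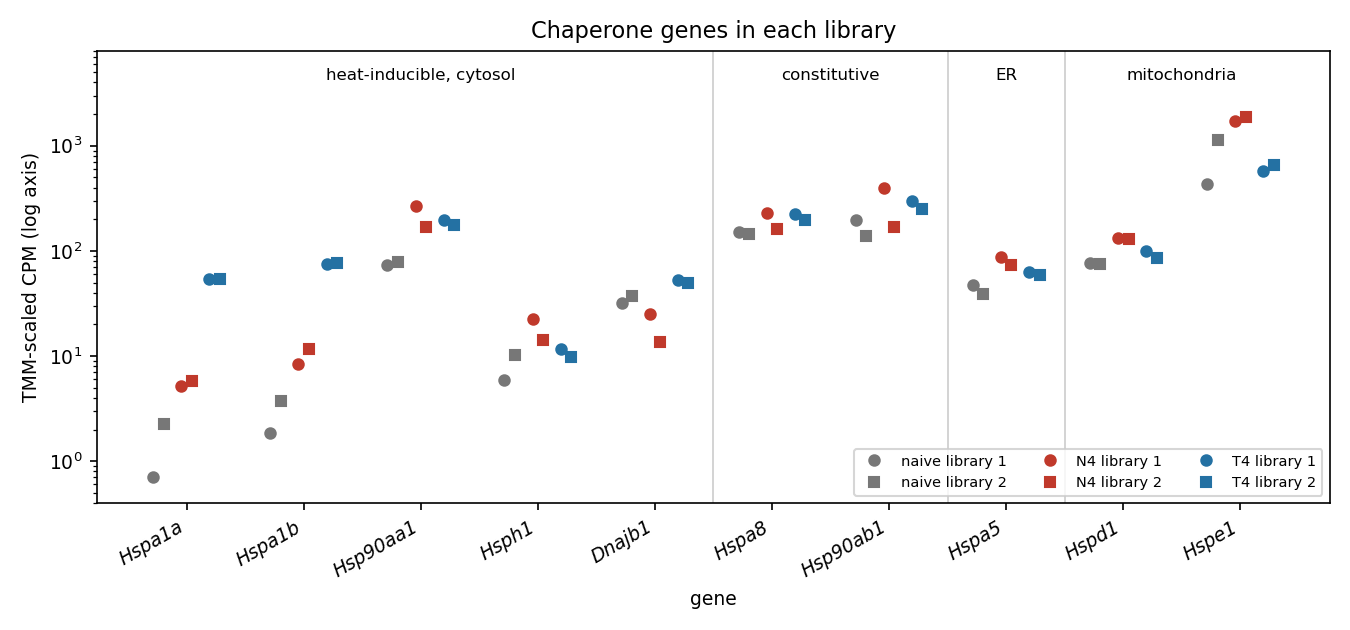
TMM-scaled CPM (log axis) of the 10 chaperone genes in each of the 6 libraries, with naive libraries in grey, N4 in red and T4 in blue, circles for library 1 and squares for library 2. Hspa1a and Hspa1b separate the 3 groups, from 0.706 to 3.72 CPM in naive libraries to 53.9 to 76.3 CPM in T4 libraries, while Hspa8 stays between 143.6 and 226.7 CPM.

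Hsp90aa1 (chr12:110690605-110702728, minus strand) was at 267.8 and 168.6 CPM in N4, 195.2 and 175.9 CPM in T4, and 73.2 and 79.1 CPM in naive libraries. Both peptide groups were above the naive libraries and overlapped each other. The gene rose 2.87-fold in N4 cells (log2 fold change 1.52 ± 0.30, adjusted p = 0.029), a call lost with libraries scaled by total count (1.02, adjusted p = 0.15) and with only the 2 groups compared (1.42, adjusted p = 0.097). In T4 cells the fold was 2.44 and did not pass (1.29 ± 0.29, adjusted p = 0.14). Between the peptides the log2 difference was 0.23 ± 0.29 (adjusted p = 0.65), and its sign turned to -0.58 when libraries were scaled by total count alone.

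Hsph1 (chr5:149614287-149636376, minus strand) was at 22.7 and 14.3 CPM in N4, 11.6 and 9.72 CPM in T4, and 5.86 and 10.1 CPM in naive libraries. The N4 libraries were above all others, and T4 and naive libraries overlapped. None of its changes passed: the log2 fold change was 1.21 ± 0.38 in N4 against naive (adjusted p = 0.093), 0.41 ± 0.38 in T4 against naive (adjusted p = 0.70) and 0.80 ± 0.38 in N4 against T4 (adjusted p = 0.22). Dnajb1 (chr8:83608193-83612653, plus strand) was at 25.2 and 13.5 CPM in N4, 53.4 and 49.6 CPM in T4, and 32.2 and 37.0 CPM in naive libraries. Its order was T4 above naive above N4, with no overlap between any groups. The largest of its differences, -1.41 ± 0.34 in N4 against T4, stood at adjusted p = 0.058, and it passed with libraries scaled by total count (-2.22, adjusted p = 0.048). The other log2 differences of Dnajb1 were -0.84 ± 0.34 in N4 against naive (adjusted p = 0.16) and 0.57 ± 0.34 in T4 against naive (adjusted p = 0.51).

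Of the constitutive cytosolic genes, Hspa8 (chr9:40800984-40810087, plus strand) was at 226.7 and 163.1 CPM in N4, 226.6 and 194.7 CPM in T4, and 150.9 and 143.6 CPM in naive libraries. Naive values were the lowest, and N4 and T4 values overlapped. No change of Hspa8 passed, and the N4 against naive value of 0.40 ± 0.26 (adjusted p = 0.34) became -0.12 with libraries scaled by total count. Hsp90ab1 (chr17:45567775-45573271, minus strand) was at 394.1 and 170.4 CPM in N4, 301.2 and 251.4 CPM in T4, and 194.8 and 138.8 CPM in naive libraries. The N4 libraries differed from each other by more than T4 differed from naive. Its log2 fold changes were 0.76 ± 0.44 in N4 against naive (adjusted p = 0.29), 0.73 ± 0.44 in T4 against naive (adjusted p = 0.52) and 0.03 ± 0.43 in N4 against T4 (adjusted p = 0.98).

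Hspa5 (chr2:34771970-34777547, plus strand) was at 88.1 and 73.4 CPM in N4, 62.6 and 59.1 CPM in T4, and 47.3 and 38.5 CPM in naive libraries. The groups did not overlap, with N4 highest and naive lowest. The log2 fold change was 0.91 ± 0.24 in N4 against naive (adjusted p = 0.060), 0.50 ± 0.24 in T4 against naive (adjusted p = 0.40) and 0.41 ± 0.24 in N4 against T4 (adjusted p = 0.31).

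Hspd1 (chr1:55077835-55088243, minus strand) was at 131.4 and 129.7 CPM in N4, 98.9 and 84.7 CPM in T4, and 77.0 and 74.6 CPM in naive libraries. It had the same order as Hspa5, again with no overlap. The log2 fold change was 0.78 ± 0.22 in N4 against naive (adjusted p = 0.071), 0.28 ± 0.22 in T4 against naive (adjusted p = 0.65) and 0.51 ± 0.22 in N4 against T4 (adjusted p = 0.19). Its divergent neighbour Hspe1 (chr1:55088132-55091307, plus strand) was at 1735 and 1859 CPM in N4, 574.5 and 659.0 CPM in T4, and 436.6 and 1139 CPM in naive libraries. N4 was highest, and the naive libraries lay on either side of T4. Its log2 fold change was 1.19 ± 0.46 in N4 against naive (adjusted p = 0.15), -0.35 ± 0.46 in T4 against naive (adjusted p = 0.81) and 1.54 ± 0.47 in N4 against T4 (adjusted p = 0.091).

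Hspe1 has a main transcript of 774 bases, and the medians of short genes had the same signs as its changes. Genes whose transcripts average 500 to 1000 bases had a median log2 fold change of 0.29 in N4 against naive, -0.23 in T4 against naive and 0.54 in N4 against T4 cells. The naive libraries differed from each other in the same way, at a median of -0.34 and 0.27 relative to each gene's mean. After a correction of each library for transcript length, added after seeing the data, the Hspe1 values were 0.97, -0.11 and 1.07, and the part of length in the rest was not tested. The same correction ended the call of Hspa1b in N4 against naive (1.82, adjusted p = 0.065) and brought Hspa5 (0.96, adjusted p = 0.019) and Hspd1 (0.87, adjusted p = 0.042) past the threshold in that comparison.

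**Figure D2:**
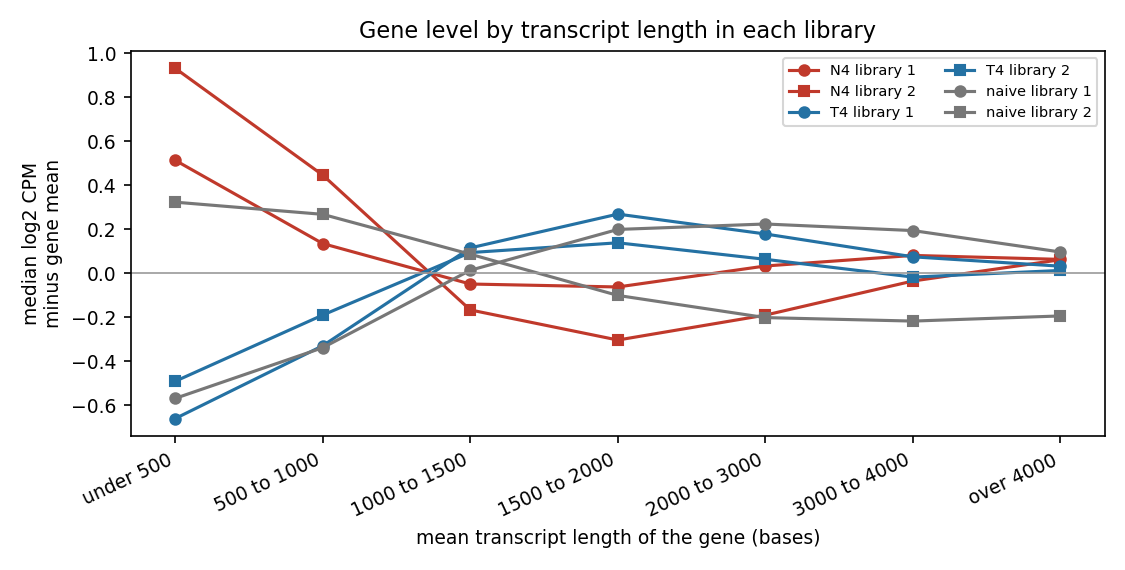
Median log2 CPM relative to each gene's mean over the 6 libraries, by mean transcript length of the gene in bases, 1 line per library. Genes under 500 bases run from -0.66 in T4 library 1 to 0.93 in N4 library 2, and the naive libraries lie at -0.57 and 0.32.

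Counted over the set, 2 genes rose in N4 against naive cells, Hspa1b and Hsp90aa1, and 0 fell, beside 12.1% of all genes called (4.87% higher and 7.18% lower). In T4 against naive cells 1 rose, Hspa1b, and 0 fell, beside 0.117% of all genes (0.0826% higher and 0.0348% lower). In N4 against T4 cells 0 rose and 2 fell, Hspa1a and Hspa1b, beside 7.96% of all genes (3.48% higher and 4.47% lower). The comparisons with naive cells share the naive libraries, so they are not separate evidence. At an unadjusted p under 0.05 there were 8, 3 and 4 genes of the set in the same order of comparisons, and 7080, 3329 and 6727 of all 23003 genes.

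Without a threshold, 9 of the 10 log2 fold changes were positive in N4 against naive, with Dnajb1 the exception, and their median was 1.05 beside -0.09 for all genes. In T4 against naive 9 were positive, with Hspe1 the exception, and the median was 0.54 beside 0.00. In N4 against T4 cells 6 were positive and 4 negative, and the median was 0.13 beside -0.20. CPM values of N4 and naive libraries did not overlap for 9 of the 10 genes, 8 higher and 1 lower, where 55.4% of all genes did not overlap (26.5% higher and 28.9% lower). For T4 and naive they did not overlap for 8, all higher, where the share of all genes was 48.8% (26.2% higher). For N4 and T4 they did not overlap for 7, 4 higher and 3 lower, where the share was 65.2% (27.6% higher and 37.6% lower). Without a test, these counts describe the libraries only.

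**Figure D3:**
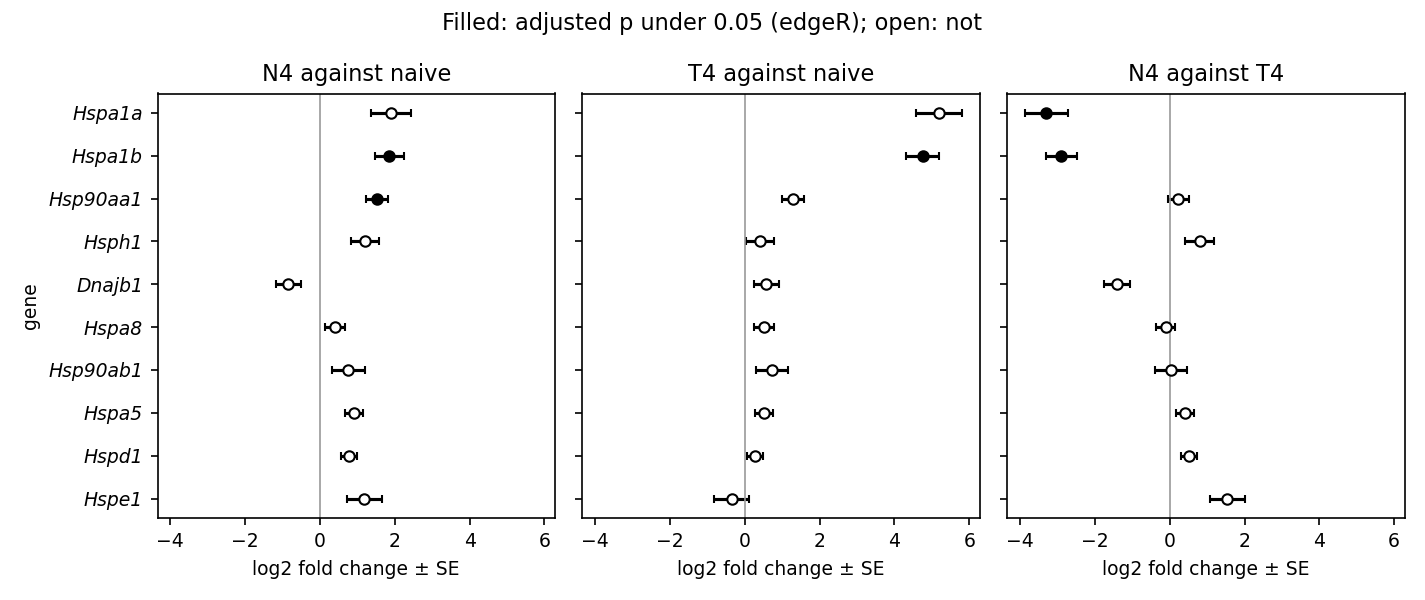
Log2 fold change with its SE for the 10 genes in N4 against naive, T4 against naive and N4 against T4, filled where the adjusted p from edgeR was under 0.05. Hspa1a and Hspa1b lie at 5.18 and 4.76 in T4 against naive, and every other gene lies between -0.35 and 1.29 there.

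Inducible members were then set against their constitutive partners within each library, per kilobase of transcript, where the scaling between libraries cancels. Hspa1a and Hspa1b made up 32.0% and 35.2% of cytosolic Hsp70 counts per kilobase (the sum with Hspa8) in the T4 libraries. The share was 4.86% and 8.32% in N4 and 1.39% and 3.38% in naive libraries. The groups did not overlap. On the log2 scale the ratio of inducible to constitutive Hsp70 was higher in T4 than in naive by 4.51, beside a combined SD of 0.94. In N4 against T4 the difference was -2.89, beside a combined SD of 0.60, so that the N4 ratio was 7.43-fold lower. The N4 ratio exceeded the naive one by 1.62, beside a combined SD of 1.10.

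Hsp90aa1 made up 34.5% and 44.0% of Hsp90 counts per kilobase (the sum with Hsp90ab1) in N4 libraries. It made up 38.1% and 40.9% in T4 libraries, and naive libraries held less, at 23.9% and 30.3%. Both peptide groups were above the naive libraries, by a log2 ratio of 0.80 (combined SD 0.53) for N4 and 0.82 (combined SD 0.35) for T4, and they overlapped each other, with a difference of -0.02 (combined SD 0.43). So the inducible share of Hsp70 differed between the peptide groups by more than the spread between libraries and the inducible share of Hsp90 by less. No test is given for these ratios, since with groups of 2 libraries the smallest p of an exact permutation test is 0.33.

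**Figure D4:**
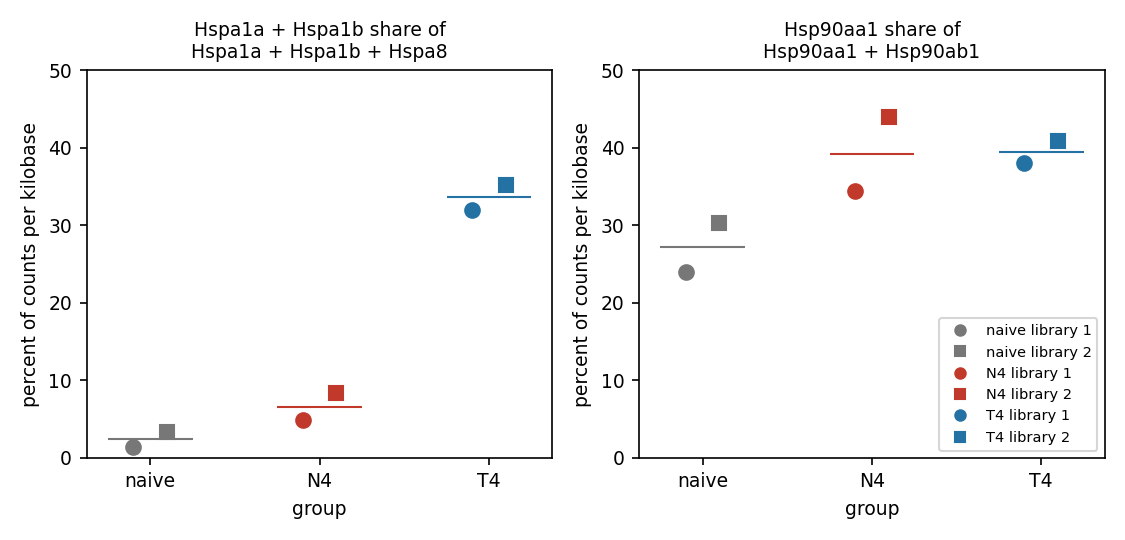
Share of inducible genes within each library, as percent of counts per kilobase: Hspa1a and Hspa1b of their sum with Hspa8 (left) and Hsp90aa1 of its sum with Hsp90ab1 (right), with points for libraries and lines for group means. The Hsp70 share is 32.0% and 35.2% in T4 libraries and at most 8.32% elsewhere, and the Hsp90 share overlaps between N4 and T4.

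Among the mitochondrial pair, Hspe1 was 39.8 and 43.5 times Hspd1 per kilobase in N4 libraries, 17.5 and 23.2 times in T4 and 17.3 and 45.9 times in naive libraries. The naive range spans the other groups. This ratio was added after seeing the data, and the length trend above bears on it because Hspd1 has a main transcript of 2423 bases.

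Levels of different genes were compared only per length, as TPM, a length-scaled abundance computed from the deposited transcript counts. Hspe1 was the highest of the 10 in every library, at 693 to 1549 TPM. Hsp90ab1 and Hspa8 were next in every library, at 119 to 157 and 96.4 to 120 TPM in T4. Hspa1a was the lowest in N4 and naive libraries, at 1.22 and 1.02 TPM in N4 and 0.292 and 0.490 TPM in naive. In T4 libraries it was at 23.0 and 21.0 TPM, overlapping Dnajb1 at 22.6 and 19.2 TPM, and the lowest gene there was Hsph1, at 3.96 and 2.98 TPM.

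Several of these genes share sequence with processed pseudogenes, which can take reads from them. Of the 50-base stretches, 74.8% of Hspa8, 58.5% of Hsp90aa1, 44.8% of Hspd1 and 44.8% of Hspe1 occur in other genes, against 4.49% of Hsp90ab1, 0.441% of Dnajb1 and 0 of Hsph1 and Hspa5. Counts given to such pseudogenes came to 18.8% to 25.7% of those of Hspa8 and 15.3% to 20.6% of those of Hsp90aa1 across libraries. For Hspd1 they came to 5.95% to 9.78%, and for Hspe1 to 0.642% to 0.765%. These sums leave out AC117239.2, annotated as protein-coding, which holds 35.2% of the Hspe1 stretches. They also leave out Gm26825, which holds 69.0% of the Hspa8 stretches. The levels of Hspa8 and Hsp90aa1 are thus less certain than those of Hspa5 and Hsph1. Exons of Hspd1 and Hspe1 overlap on opposite strands, and the library kit does not mark strand.

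Most counts of each gene fell on 1 transcript model, with some differences between groups. The intron-retaining transcript Hsp90aa1-206 took 6.31% and 7.59% of Hsp90aa1 counts in T4 libraries. It took 0.742% and 0.579% in N4 and 3.55% and 0.967% in naive libraries, so T4 was highest. The coding transcript Hsp90aa1-201 followed the same order, with 8.61% and 10.8% in T4, 1.60% and 0.918% in N4, and 3.76% and 1.34% in naive libraries. Across all coding genes, retained-intron transcripts took 4.36% and 4.26% of counts in T4, 3.18% and 3.26% in N4, and 4.32% and 3.63% in naive libraries, which is a narrower range. Hspa5-201 took 16.3% and 10.5% of Hspa5 counts in naive libraries and 5.61% to 6.50% in the others. Hspa8-202 was listed with 18.9% of Hspa8 counts in naive library 1 and at 0 in the other 5. These shares were estimated by the authors' pipeline and carry no test here.

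Other genes of the protein folding system came from lists that group them by role. Of 19 cytosolic heat-responsive chaperones and cochaperones, 17 were tested: 0 rose and 1 fell in N4 against naive, none passed in T4 against naive, and 0 rose and 1 fell in N4 against T4. Their median log2 fold changes were -0.35, 0.12 and -0.50, beside -0.09, 0.00 and -0.20 for all genes. The share of all genes called lower was 7.18% in N4 against naive and 4.47% in N4 against T4. The gene that fell is Hspb1, a small heat shock protein, which was at 0 in both N4 libraries and at 0.33 to 0.921 CPM in the others, so that it was at least 44.3-fold lower than in naive and 32.3-fold lower than in T4 cells at a floor of 3 counts per library. Hspa4l, an Hsp110 relative, was at 4.26 and 3.59 CPM in N4, 4.22 and 3.97 CPM in T4 and 2.09 and 1.14 CPM in naive libraries, and did not pass in N4 against naive (1.28 ± 0.40, adjusted p = 0.092). Chordc1 was highest in N4, at 53.2 and 61.2 CPM, beside 31.5 and 27.4 CPM in T4 and 32.7 and 40.1 CPM in naive libraries. It did not pass in N4 against naive (0.65 ± 0.24, adjusted p = 0.13) or against T4 (0.96 ± 0.24, adjusted p = 0.062). Hspa2, a testis-enriched Hsp70 named here after its values were seen, had the order of Hspa1a and Hspa1b at low level, with 2.94 and 2.99 CPM in T4, 1.3 and 0.992 CPM in N4, and 0.00683 and 0.348 CPM in naive libraries. Its naive counts were 3 and 87, and its log2 fold change of 4.08 ± 1.47 in T4 against naive did not pass (adjusted p = 0.29). With only the 2 groups compared, 0 genes of the list passed in N4 against naive, where 755 of 20697 genes were called lower. In such a fit of N4 against T4, 1 rose and 3 fell, where 2616 of 21360 genes were called higher and 2665 lower.

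Of 4 heat shock transcription factors and modulators, Ier5, an immediate early gene whose product is known to activate HSF1, fell in N4 cells. It was at 15.2 and 9.69 CPM in N4, 46.4 and 42.6 CPM in T4, and 68.1 and 36.5 CPM in naive libraries. It fell by 2.07 on the log2 scale against naive (SE 0.40, adjusted p = 0.028) and by 1.84 against T4 (SE 0.39, adjusted p = 0.046), and both missed the threshold with libraries scaled by total count (adjusted p = 0.054 and 0.058). Hsf1, the main heat shock factor, was at 8.99 and 5.84 CPM in N4, 12.4 and 10.9 CPM in T4, and 17.4 and 3.82 CPM in naive libraries, with the naive libraries on either side of the rest. Hsf1, Hsf2 and Hsbp1 did not pass in any comparison. Over all genes, 7.18% were called lower in N4 against naive and 4.47% in N4 against T4. With only the 2 groups compared, 0 of these 4 genes fell in N4 against naive and 1 in N4 against T4. In those fits 755 of 20697 and 2665 of 21360 genes were called lower.

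Of 14 constitutive Hsp70 and Hsp90 cochaperones, 1 rose in N4 against naive and against T4, where 4.87% and 3.48% of all genes were called higher. This gene is Dnajb6, an Hsp40. It was at 168.0 and 186.7 CPM in N4, 77.1 and 73.9 CPM in T4, and 82.8 and 85.0 CPM in naive libraries (log2 fold change 1.08, adjusted p = 0.032, and 1.23, adjusted p = 0.033), and both calls were lost with libraries scaled by total count. With only the 2 groups compared, 0 of these cochaperones passed in N4 against naive, and 2 rose and 3 fell in N4 against T4. Of 14 subunits of the cytosolic chaperonin TRiC and of prefoldin, which fold actin and tubulin among others, 3 rose and 0 fell in N4 against naive, and 3 rose and 0 fell in N4 against T4. They were Cct6a, Vbp1 and Pfdn4 in both, where 4.87% and 3.48% of all genes were called higher. With libraries scaled by total count 3 rose and 1 fell in each. With only the 2 groups compared 0 subunits rose in N4 against naive and 5 in N4 against T4. In those fits 289 of 20697 and 2616 of 21360 genes were called higher. Vbp1, a prefoldin subunit, was at 289.7 and 362.2 CPM in N4, 62.2 and 61.1 CPM in T4, and 97.4 and 112.8 CPM in naive libraries (1.63, adjusted p = 0.016, and 2.40, adjusted p = 0.016). The median of this list was 0.70 in N4 against naive, 0.29 in T4 against naive and 0.42 in N4 against T4, the last turning to -0.43 with libraries scaled by total count.

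Of 16 chaperones of the endoplasmic reticulum, 2 rose and 0 fell in N4 against naive, where 4.87% of all genes were called higher and 7.18% lower. None passed in the other comparisons. With libraries scaled by total count 0 rose and 1 fell in N4 against naive, and the median of the list there went from 0.51 to -0.055. With only the 2 groups compared 0 rose in N4 against naive and 4 in N4 against T4. In those fits 289 of 20697 and 2616 of 21360 genes were called higher. Hsp90b1, the Hsp90 of that compartment, was at 96.9 and 74.4 CPM in N4, 40.4 and 39.1 CPM in T4, and 34.3 and 42.6 CPM in naive libraries (1.16 ± 0.25, adjusted p = 0.039). Hyou1, its Hsp110, was at 5.12 and 3.56 CPM in N4, 1.20 and 1.84 CPM in T4, and 1.12 and 1.23 CPM in naive libraries (1.89 ± 0.42, adjusted p = 0.040). N4 was highest for both, as it was for Hspa5. Of 8 regulators of the unfolded protein response, Ddit3, a stress-induced transcription factor, fell by 2.08 in N4 against naive (adjusted p = 0.012) and by 2.66 against T4 (adjusted p = 0.016) on the log2 scale. In these comparisons 7.18% and 4.47% of all genes were called lower. None of 7 mitochondrial chaperones and proteases passed in any comparison.

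Immediate early genes, which are transcribed within minutes of many stimuli including the handling of cells, are set beside the inducible Hsp70 pair because several were also highest in T4 cells. Of 12 such genes 2 rose in T4 against naive and 0 fell, and in N4 against T4 0 rose and 9 fell. In N4 against naive 1 rose and 5 fell. Of all genes 0.0826% were called higher in T4 against naive and 4.47% lower in N4 against T4. In N4 against naive 4.87% of all genes were called higher and 7.18% lower. RLE scaling left 0 higher in T4 against naive, where Fos and Fosb stood at adjusted p = 0.051, and scaling by total count left 0 higher in N4 against naive. With only the 2 groups compared, 0 rose and 1 fell in N4 against naive, where 289 and 755 of 20697 genes did. Such fits left 0 called in T4 against naive, as for all 22181 genes. In N4 against T4 9 fell, where 2665 of 21360 genes did. Fos, an AP-1 subunit, was at 45.7 and 37.1 CPM in T4, 1.26 and 1.25 CPM in N4, and 3.40 and 4.38 CPM in naive libraries (T4 against naive 3.41, adjusted p = 0.047, N4 against T4 -5.04, adjusted p = 0.013). Fosb, its relative, was at 22.6 and 28.1 CPM in T4, 1.54 and 3.35 CPM in N4, and 0.499 and 0.496 CPM in naive libraries (T4 against naive 5.67, adjusted p = 0.047, N4 against naive 2.29, adjusted p = 0.026). Of Fos, Fosb, Zfp36 and Btg2, Fosb had the order of Hspa1a and Hspa1b, with T4 above N4 above naive and no overlap. Jun, of the same list and named here after its values were seen, had this order too. It was at 131.9 and 135.2 CPM in T4, 10.9 and 16.1 CPM in N4, and 7.86 and 1.95 CPM in naive libraries. Its log2 fold change of 4.77 ± 0.72 in T4 against naive did not pass (adjusted p = 0.076). Zfp36, an RNA decay factor, was at 179.2 and 196.3 CPM in T4, 25.2 and 22.1 CPM in N4, and 164.6 and 140.0 CPM in naive libraries, so that it set N4 apart from both other groups. Btg2, an inhibitor of proliferation, also fell in N4 against naive (-1.25, adjusted p = 0.023) and against T4 (-1.10, adjusted p = 0.041). The part of cell handling in these values was not tested.

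**Figure D5:**
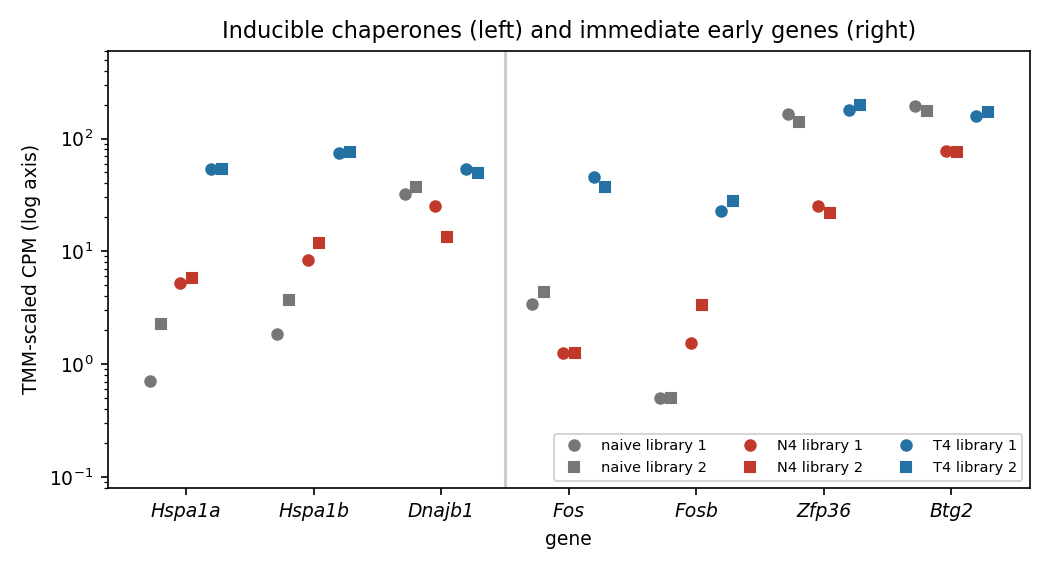
TMM-scaled CPM (log axis) in each library for Hspa1a, Hspa1b and Dnajb1 (left) and for 4 immediate early genes (right), with naive in grey, N4 in red and T4 in blue. Fos and Fosb are highest in T4 libraries, as are Hspa1a and Hspa1b, while Zfp36 and Btg2 are lowest in N4 libraries at 22.1 to 78.3 CPM.

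Several lists of markers of other cells are given beside the Hsp70 result. The summed level of 10 macrophage and monocyte markers was 21.0 and 16.8 CPM in N4 and 269.6 and 256.0 CPM in T4 libraries. In naive libraries it was 2229 and 2667 CPM. Most of the T4 sum came from Lyz2, at 242.7 and 230.1 CPM in T4 and 12.4 and 11.6 CPM in N4. Cd68 was at 20.7 and 21.7 CPM in T4 and 6.14 and 4.86 CPM in N4. Every other marker of this list was at most 3.75 CPM in both groups, and C1qa values overlapped between them. Red cell genes, 7 in number, summed to 423 and 360 CPM in N4, 6511 and 8124 CPM in T4 and 3447 and 9233 CPM in naive libraries. For 6 dendritic cell markers the sum was 385 and 398 CPM in T4, 61.8 and 54.6 CPM in N4, and 1502 and 1143 CPM in naive libraries. Most of the T4 sum came from H2-Aa, at 179.3 and 189.8 CPM, and H2-Ab1, at 199.9 and 201.5 CPM. Itgax was higher in N4, at 4.04 and 3.72 CPM, than in T4, at 1.97 and 1.91 CPM. Xcr1 was also higher in N4 than in T4, while Flt3 and Siglech were higher in T4. For 4 natural killer cell markers the sum was 29.9 and 29.2 CPM in T4, 2.62 and 2.55 CPM in N4, and 83.2 and 108.9 CPM in naive libraries. The summed level of 4 CD4 and regulatory T cell markers was highest in N4, at 69.2 and 99.5 CPM. It was 17.1 and 16.8 CPM in T4 and 1.74 and 4.34 CPM in naive libraries. Most of the N4 sum came from Ctla4, at 47.0 and 79.5 CPM, and Il2ra, at 21.8 and 18.8 CPM. Foxp3 was at 0.394 and 1.15 CPM in N4, 0.332 and 0.0155 CPM in T4, and 0.538 and 0.945 CPM in naive libraries. In N4 libraries Adgre1, Ltf, Siglech, Alas2 and Cd4 were at 0. Of these, Ltf was also at 0 in T4 library 2, Siglech in naive library 2 and Cd4 in naive library 1. The part of other cells in the Hsp70 differences was not tested.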

How the data were processed

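Estimated counts per gene and per transcript were used as the authors deposited them, whole numbers with no normalization. The submitters' processing notes name STAR 2.7.1a, SAMtools 1.9, StringTie 2.1.0, R 4.0.5, DESeq2 1.30.1 and the build mm39, without role or order. They leave the annotation release not given in the sources used here. Per the labels' protocols, RNA came from a QIAGEN micro kit and libraries from a SMARTer poly(A) kit, which does not mark strand. Library totals may depend on a read length assumed upstream, so they are not numbers of reads, and counts of 0 or floors of 3 counts cover counting error only.

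Symbols were found for 52081 of 55414 gene identifiers (94.0%) and GENCODE M21 models for 138292 of 142435 transcripts (97.1%). These models and all coordinates are GRCm38, another build than mm39, and served for names, lengths, exons and shared 50-base stretches. Ddit3 has 2 identifiers, and the one with more counts was used. Every per-sample column belonged to 1 of the 6 libraries.

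The test was the quasi-likelihood test of edgeR 4.0.16 (with limma 3.58.1, in R 4.3.3), fitted to the means of all 3 groups at once after TMM scaling and the filterByExpr filter, with Benjamini-Hochberg adjustment over 23003 genes at 0.05. The common biological coefficient of variation was 0.67, with 3 residual and 3.1 prior degrees of freedom. Standard errors come from the log2 fold change and the F statistic. The centred log2 CPM values behind the like genes and length bins used a prior count of 2. The procedure was tested on simulated counts. No pair of libraries of a group held identical values (chi-square per degree of freedom 96.7 to 1884), and this does not tell separate mice from technical repeats.

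The 10 genes, the 8 lists of related genes and the 8 lists of markers, of which 1 is not reported here, were chosen with earlier results of these data known. Set to be named were all 10 genes, up to 3 genes of each list with the smallest p in N4 against naive and up to 3 in N4 against T4, and the 2 genes most like each of the 10. Not every list gene that this rule picks is described, and Hspa2 and Jun were added outside it. The transcripts described were chosen after their values were seen. Alternatives tried were library-size and RLE scaling, no filter, DESeq2 1.42.0, only the 2 groups compared, the replicate number as a block, leaving out each library, and, added after seeing the data, a loess correction for transcript length, the sum of Hspa1a and Hspa1b, and the Hspe1 to Hspd1 ratio.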

Additional observations from a re-analysis of the deposited data

How the results depend on the processing

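The set held 2, 1 and 2 called genes in N4 against naive, T4 against naive and N4 against T4. With libraries scaled by total count the numbers were 1 in N4 against naive and 2 in T4 against naive, and under this scaling all genes had medians of -0.65, 0.30 and -1.05 (log2). RLE scaling left 0 in T4 against naive. Without a filter on low counts they were 3 in T4 against naive and 4 in N4 against T4, with DESeq2 6, 3 and 4 in the order above, and with only the 2 groups compared 0, 0 and 4. Leaving out 1 library gave 0 to 5, 0 to 2 and 0 to 4. Each N4 or T4 library left out gave 0 in all comparisons, while without naive library 1 or 2 both Hspa1a and Hspa1b were called throughout, with the lone naive library assumed to vary like the other groups. Over all 23003 genes, 2772, 27 and 1830 were called. DESeq2, given 55414 genes, called 6657, 2232 and 6234. Without a filter 4257, 956 and 3834 of 34879 genes were called. With only the 2 groups compared the calls were 1044 of 20697, 0 of 22181 and 5281 of 21360 genes. Fits without 1 library held 25282 to 26114 genes, and the scaling, block and length settings 23003. In T4 against naive, RLE scaling called 0, library-size scaling 53 and the length correction 156, and leaving out 1 library called 639 to 4487, 0 to 357 and 0 to 4547 in the 3 comparisons. The cause was not tested.

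Same-numbered libraries deviated together (correlation over 8332 genes 0.31 for N4 and T4, 0.46 for N4 and naive, 0.28 for T4 and naive), but with 2 numbers and no label that pairs them they share only a number. With the replicate number as a block, 4, 2 and 4 of the 10 genes and 3620, 130 and 3367 of all genes were called. The calls gained were Hspa1a and Hspa5 in N4 against naive, Hspa1a in T4 against naive, and Dnajb1 and Hspe1 in N4 against T4.

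Of 390 values of the 10 genes under an alternative, 314 kept direction and side of the threshold, 27 lost the call, 33 gained one and 16 changed sign. None of the called values changed sign. In N4 against T4, library-size scaling gave Hsp90aa1 -0.58, Hsp90ab1 -0.76, Hspa5 -0.43, Hspd1 -0.35 and Hsph1 -0.021. Hsp90ab1 was at -0.10 with no filter and -0.073 with the block, and Hspa8 at 0.064 with the length correction. With 1 library left out, Hsp90aa1 ran from -0.14 (without N4 library 1) to 0.53, Hsp90ab1 from -0.70 (without N4 library 1; -0.11 without T4 library 2) to 0.51, and Hspa8 from -0.37 to 0.10 (without N4 library 2). In N4 against naive Hspa8 went to -0.12 (library-size scaling). In T4 against naive Hspe1 went to 0.10 (library-size scaling) and, with 1 library left out, ran from -0.98 to 0.49 (without naive library 2), and Hsph1 from -0.021 (without naive library 1) to 0.86. The cause was not tested.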

Other observations

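The genes most like each of the 10 over the 6 libraries were found by the root mean square difference of centred log2 CPM among about 5064 protein-coding genes of mean log2 CPM of at least 3. For Hspa1a the nearest was its copy Hspa1b (0.32), followed by the histone gene Hist1h2bn (0.99), where the median over candidates was 2.32. Hspa1a had a mean log2 CPM under 3 and was no candidate for Hspa1b, from which it differs by the same 0.32. Among the candidates, Hspa1b was nearest to the histone genes Hist1h1d (0.82) and Hist1h2bn (0.86), where the median was 2.07. Hist1h2bn was at 40.6 and 50.8 CPM in T4, 20.9 and 28.0 CPM in N4, and 1.47 and 3.83 CPM in naive libraries, the order of the inducible Hsp70 pair with a smaller gap between the peptides. Hsp90aa1 was nearest to E2f1 (0.11), a cell cycle transcription factor, and Smarca5 (0.14), and Hsph1 to Psme4 (0.17) and Plpp2 (0.20). Dnajb1 was nearest to H2-Q7 (0.09), a class Ib MHC gene, and Edf1 (0.12).

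Of the constitutive genes, Hspa8 was nearest to Prmt1 (0.08) and Acp1 (0.08), and Hsp90ab1 to Impdh2 (0.11), an enzyme of guanine nucleotide synthesis, and Ldha (0.14), lactate dehydrogenase. Hspa5 was nearest to Paics (0.03), an enzyme of purine synthesis, and Pabpc1 (0.07). Hspd1 was nearest to Copa (0.05) and Ppp6r3 (0.05), and Hspe1 to Ndufb2 (0.10), a subunit of respiratory complex I, and Ttc32 (0.11). Likeness over 6 libraries carries no test.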
